A study of Mus musculus with 12 samples.

Results

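The Rb, E2F and MYB network was followed in mouse embryonic stem cells (ESCs) with and without Dgcr8, through 10 of its genes. These were the pocket protein genes Rb1, Rbl1 and Rbl2, the transcription factor genes E2f1, E2f3, E2f4 and E2f5, the DREAM subunit gene Lin54, and the MYB-like genes Mybl1 and Mybl2. They were taken as a list by gene symbol from the 51467 gene identifiers of the count table. The list was chosen with earlier results of these data known. All 10 were among the 14033 genes that had at least 3 CPM in at least 3 libraries. CPM are the reads of a gene scaled to the size of the library. Wild-type (WT) cells were the V6.5 ESC line, and Dgcr8 KO cells were an existing knockout ESC line, so each genotype is represented by a single line. Both were grown with fetal bovine serum, LIF and the 2i inhibitors PD0325901 and CHIR99021, and every culture, WT included, received 4-thiouridine (4sU, a uridine analogue that new transcripts take up) at 500 uM for 30 min. RNA of each culture was divided into rRNA-depleted total RNA and captured 4sU RNA, the measure of nascent transcription. Each of the 4 groups (WT total, KO total, WT 4sU and KO 4sU) held 3 replicates, 12 libraries in all. Nothing states that the replicates were grown separately, so p-values measure the spread between these samples, which may be technical.

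Pocket proteins bind E2F factors and hold the genes of cell cycle entry in check until cyclin-dependent kinases phosphorylate them. RB1 mainly restrains the activator E2Fs, among them E2F1 and E2F3, while RBL1 and RBL2 pair with the repressor E2Fs, E2F4 and E2F5. LIN54 is the DNA-binding subunit of the MuvB core, which joins RBL1 or RBL2 with E2F4 or E2F5 in the repressive DREAM complex, and joins B-MYB, the product of Mybl2, in the activating complex of late cell cycle genes. ESCs are known for a short G1 phase and for little restraint by pocket proteins. DGCR8 cuts primary microRNA transcripts together with the nuclease DROSHA, so cells without it lack most mature microRNAs, among them the ESC-specific cell cycle (ESCC) family, for which Rbl2 is a long-described target.

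The sequences through which microRNAs could meet these transcripts are shown first. The mature ESCC microRNAs of RefSeq (GRCm38.p6) are given below with the seed, bases 2 to 8, in capitals. The first 3 lie on chromosome 7, the plus strand, for example miR-294-3p at chr7:3220691-3220712, and miR-302b-3p lies at chr3:127545275-127545297. The miR-17 family members miR-17-5p and miR-20a-5p, which carry the same letters moved by a base, are on chromosome 14, at chr14:115043684-115043706 and chr14:115044183-115044205. Small RNAs were not measured in these libraries.
miR-291a-3p: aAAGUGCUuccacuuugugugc
miR-294-3p: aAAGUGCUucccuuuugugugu
miR-295-3p: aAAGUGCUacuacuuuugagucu
miR-302b-3p: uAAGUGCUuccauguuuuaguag
miR-17-5p: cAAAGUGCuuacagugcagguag
miR-20a-5p: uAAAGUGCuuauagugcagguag

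A match to the ESCC seed in a 3′ UTR reads AGCACTT or GCACTTA (7 bases) or, joining both, AGCACTTA (8 bases), searched on the transcript strand in the longest GENCODE M21 3′ UTR of each gene. Such a match stood in 4 of the 10 genes, Rbl1, Rbl2, E2f5 and Mybl1, and in 21.3% of the 11816 tested genes with an annotated 3′ UTR. The 8-base match stood only in Rbl2 among the 10, and in 3.67% of tested genes. The bare hexamer GCACTT stood in 9 of the 10, all but Lin54, and in 34.0% of tested genes. The median 3′ UTR length was 1506 bases for the 10 genes and 1202 for the tested genes, and a longer UTR can hold more matches of any kind. A match is a description of the letters, not evidence of binding. The 7-base and 8-base matches are printed in their surroundings, with the matching bases in capitals and the mm10 position of the match.
Rbl1 (chr2:157147478-157147484, minus strand): tgcctgatcaaAGCACTTttggattgttct
Rbl2 (chr8:91123830-91123837, plus strand): tgtatttttcaataaAGCACTTAtaaatta
E2f5 (chr3:14606158-14606164, plus strand): ccttctgttttAGCACTTtaagcctatcag
Mybl1, first match (chr1:9668793-9668799, minus strand): taaaacagtctGCACTTAgaagtttattgt
Mybl1, second match (chr1:9668652-9668658, minus strand): tttaggtgtttGCACTTAttttatctcttt
The matches lay at different places in the UTRs. In Rbl1 the match covered bases 22 to 28 after the stop codon of a UTR of 1613 bases. In Rbl2 it covered bases 1384 to 1391 of 1398, at the very end of the annotated UTR, and its first base is also the last letter of AATAAA, the canonical polyadenylation signal. Rbl2 also held a pair of hexamers GCACTT without a further ESCC base, upstream at bases 705 and 766. Both read GCACTTT, and they are the 2 miR-17 matches of Rbl2 counted below. In E2f5 the match began at base 441 of 592, and in Mybl1 the matches began at bases 1085 and 1226 of 2469. Matches of 7 bases to the miR-17 seed, GCACTTT or CACTTTA, share letters with the ESCC matches and stood in 6 of the 10 genes (2 each in Rbl2 and E2f1, and 1 each in Rb1, Rbl1, E2f3 and E2f5, with overlapping matches counted once), against 22.4% of tested genes.

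Total counts were 6873708 to 9295245 in total libraries and 4593914 to 6005526 in 4sU libraries. Levels are given as CPM after scaling by the TMM method, and differences as the log2 change of KO against WT from limma, with adjusted p over all 14033 genes. Dgcr8 fell from 101.1 ± 9.26 to 33.1 ± 1.08 CPM in total RNA (SD, n = 3), and its log2 change was -1.60 (limma adjusted p = 6.68e-17). All 10 pluripotency markers passed the filter, with summed levels of 5843 to 5974 CPM in WT total and 5749 to 5825 CPM in KO total libraries. Of 10 primed and germ-layer markers 4 passed, with sums of 37.5 to 38.5 CPM in WT total and 41.2 to 45.1 CPM in KO total libraries. Of 10 fibroblast markers, which feeder cells would bring, 1 passed. Their sums were 11.2 to 13.4 CPM in WT total and 5.68 to 7.18 CPM in KO total libraries, and Dcn and Postn were at 0 counts in every library. The sums cover changes of single markers in both directions. In total RNA 3 of the 10 pluripotency markers rose and 6 fell, with log2 changes of -0.40 to 0.32. Of all tested genes 27.2% rose and 36.7% fell. Of the 4 tested primed and germ-layer markers 1 rose and 1 fell, with log2 changes of -2.42 to 0.78. The part of these differences in the results below was not tested.

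The pocket protein genes were higher in Dgcr8 KO cells at both steps that were measured, and for Rbl2 the rise in total RNA also exceeded the rise in nascent RNA. In total RNA 9 of the 10 genes passed the test at an adjusted p under 0.05. Rb1, Rbl1, Rbl2, Lin54 and Mybl1 rose, and E2f1, E2f4, E2f5 and Mybl2 fell. This is 5 of 10 higher, where 27.2% of all tested genes were higher, and 4 of 10 lower, where 36.7% were lower. In nascent RNA the 3 pocket protein genes rose and E2f1, E2f3, E2f5 and Mybl1 fell, against 28.3% of tested genes higher and 28.0% lower. Both comparisons called so many genes that the number of calls among the 10 says little, and the direction and size of each change are given below. For stability, the difference between the total and the nascent change, only 5.02% of tested genes were higher and 11.1% lower. Here Rbl2 and Mybl1 rose and E2f4 fell, and the other 7 did not pass.

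**Figure D1:**
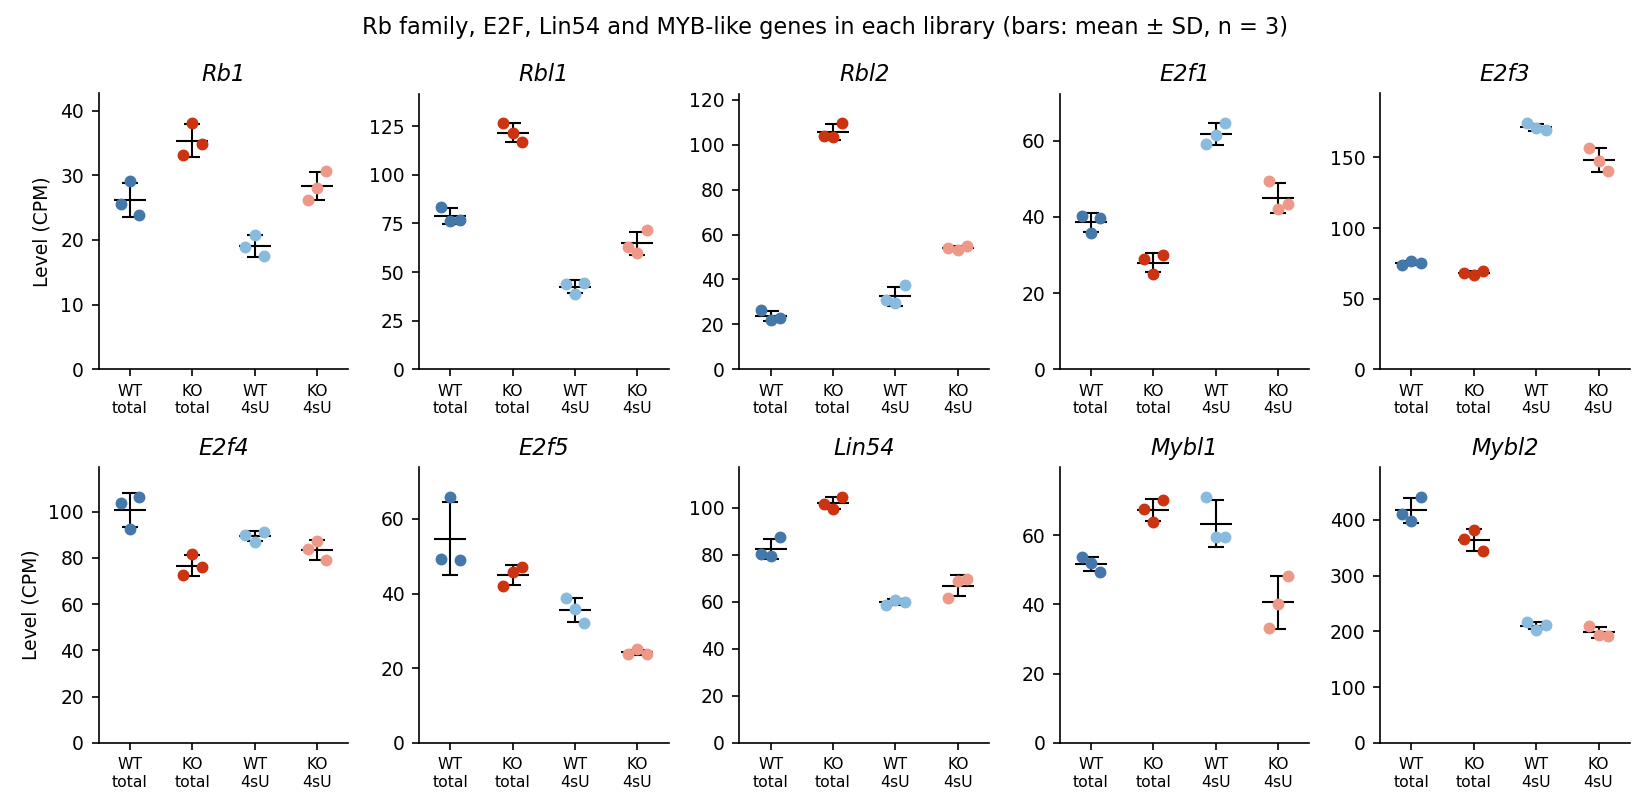
Levels in CPM (y axis, from 0) of the 10 genes in the 12 libraries, by genotype and library type. Points are libraries and black bars the mean ± SD of 3. Rbl2 total RNA lies at 103 to 110 CPM in all 3 KO libraries and at 21.8 to 26.2 CPM in WT, while Mybl1 is higher in KO than WT in total RNA and lower in 4sU RNA.

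Rbl2 encodes p130, the pocket protein of quiescent and G1 cells and of the DREAM complex (chr8:91070057-91123844, plus strand, mm10). Its total RNA was 26.2, 21.8 and 23.0 CPM in WT replicates 1 to 3 and 104, 103 and 109.7 CPM in KO replicates 1 to 3. Its nascent RNA was 30.7, 29.6 and 37.3 CPM in WT and 54.1, 53.3 and 54.7 CPM in KO. All KO libraries lay above all WT libraries of the same type, and the gap was wider in total than in nascent RNA. The fitted change was 2.17 in total RNA (SE 0.0857, limma adjusted p = 4.32e-20), a 4.49-fold rise, and 0.73 in nascent RNA (SE 0.0964, limma adjusted p = 1.10e-07), a 1.66-fold rise. The stability term, which tests the difference between these, was 1.43 (SE 0.129, limma adjusted p = 1.40e-09). Rbl2 was the only one of the 10 past an absolute log2 change of 1 in total RNA, where 9.33% of tested genes were that far higher. For stability it and Mybl1 were past that size and higher, where 0.791% of tested genes were that far higher. Mybl1 fell short of it without WT replicate 1 (0.96) or KO replicate 1 (0.89), where it still passed the test. Rbl2 is also the only one of the 10 with the 8-base ESCC match shown above. A link between matches and stability was not tested for any of the 10 genes.

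Rbl1 encodes p107, the pocket protein of cycling cells and itself an E2F target (chr2:157145893-157204512, minus strand). Total RNA was 83.6, 76.1 and 76.5 CPM in WT and 127, 121 and 117 CPM in KO. Nascent RNA was 44.0, 38.7 and 44.6 CPM in WT and 62.6, 59.8 and 71.6 CPM in KO. The genotypes did not overlap at either step, and the fitted changes were nearly equal, 0.63 in total RNA (SE 0.0658, limma adjusted p = 5.65e-10) and 0.60 in nascent RNA (SE 0.0899, limma adjusted p = 1.16e-06). The stability change was 0.03, with a 95% confidence interval of -0.19 to 0.26 (limma adjusted p = 0.883). Rbl1 holds a 7-base ESCC match.

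Rb1, the retinoblastoma tumour suppressor gene (chr14:73195502-73325822, minus strand), also rose at both steps. Total RNA was 25.6, 29.1 and 23.9 CPM in WT and 33.1, 38.1 and 34.9 CPM in KO, and nascent RNA was 18.9, 20.8 and 17.5 CPM in WT and 26.2, 28.1 and 30.7 CPM in KO. The genotypes were apart in both. The change was 0.43 in total RNA (SE 0.0943, limma adjusted p = 0.000188) and 0.58 in nascent RNA (SE 0.124, limma adjusted p = 0.000194), with a stability change of -0.15 (95% confidence interval -0.47 to 0.17, limma adjusted p = 0.584). Rb1 has no 7-base ESCC match. Counts were separated by strand, so the overlapping genes on the opposite strand of Rb1 (Rcbtb2), Rbl2 (Aktip and Gm45464) and E2f5 (1810022K09Rik) were counted apart.

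Divided by exon length, the levels of the 3 pocket protein genes can be set beside each other. In WT total RNA Rbl1 led with 16.2 ± 0.865 CPM per kilobase, followed by Rb1 with 5.63 ± 0.568 and Rbl2 with 4.81 ± 0.464 (SD, n = 3), and the ranges of Rb1 and Rbl2 overlapped. In KO total RNA Rbl1 was at 25.0 ± 0.995, Rbl2 at 21.5 ± 0.712 and Rb1 at 7.60 ± 0.539 CPM per kilobase, with no overlap between neighbours. Rbl2 thus passed from the lowest of the 10 genes in WT to the fifth in KO, where its range overlapped that of Lin54. It made up 18.1 ± 1.11% of the summed pocket protein level in WT total RNA and 39.7 ± 1.48% in KO total RNA. In nascent RNA its share was 33.9 ± 2.63% in WT and 36.2 ± 1.68% in KO, with overlapping ranges. The summed level itself was 26.6 ± 1.26 CPM per kilobase in WT and 54.1 ± 0.237 in KO total RNA, and 19.4 ± 1.05 and 30.4 ± 1.80 in nascent RNA. These sums follow from the single genes and were not tested.

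**Figure D2:**
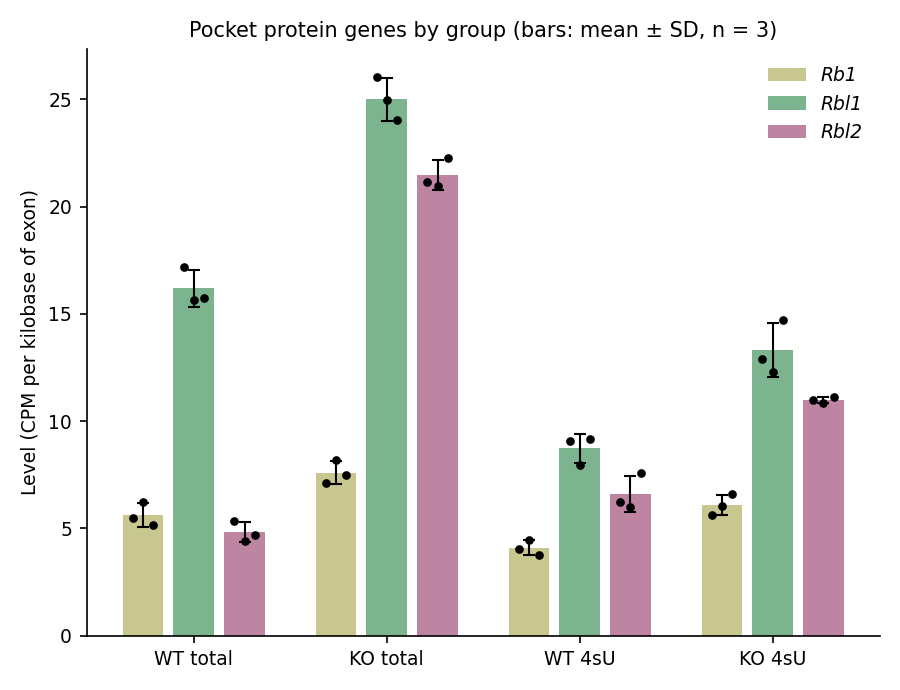
Levels of Rb1, Rbl1 and Rbl2 in CPM per kilobase of exon (y axis, from 0) in the 4 groups. Bars are means, points single libraries and error bars the SD of 3. Rbl2 is the lowest bar in WT total RNA at 4.81 and close to Rbl1 in KO total RNA at 21.5 against 25.0.

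The E2F genes moved the other way or little. E2f1, the activator that drives S-phase genes (chr2:154559407-154569892, minus strand), had total RNA of 40.2, 35.7 and 39.6 CPM in WT and 29.0, 25.0 and 29.9 CPM in KO. Its nascent RNA was 59.0, 61.6 and 64.6 CPM in WT and 49.3, 42.1 and 43.4 CPM in KO. KO libraries lay below WT libraries throughout. The change was -0.46 in both total RNA (SE 0.0918, limma adjusted p = 5.54e-05) and nascent RNA (SE 0.0886, limma adjusted p = 5.09e-05). The stability change was -0.00054, with a 95% confidence interval of -0.26 to 0.26. In bulk RNA a smaller share of cells in the phase that expresses a gene and less of its RNA per cell cannot be told apart.

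E2f3, the other activator (chr13:29906575-29986063, minus strand), fell in nascent RNA, from 174, 171 and 169.6 CPM in WT to 157, 148 and 140.2 CPM in KO, a change of -0.21 (SE 0.0582, limma adjusted p = 0.00235). In total RNA it was 73.6, 76.4 and 75.1 CPM in WT and 68.0, 66.9 and 69.9 CPM in KO. Although these ranges did not overlap, the change of -0.14 did not pass (95% confidence interval -0.27 to -0.01 before adjustment, limma adjusted p = 0.0622). E2f1 and E2f3 had the lowest fitted total to 4sU ratios of the 10 genes in either genotype, although in WT the range of E2f1 overlapped that of Rbl2.

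Of the repressor E2F genes, E2f4 (chr8:105297663-105305370, plus strand) passed as lower in total RNA and did not pass in nascent RNA. Total RNA was 104, 92.6 and 106 CPM in WT and 72.4, 81.7 and 75.8 CPM in KO, a change of -0.40 (SE 0.0669, limma adjusted p = 5.10e-06). Nascent RNA was 90.1, 87.0 and 91.3 CPM in WT and 83.9, 87.3 and 79.0 CPM in KO, where the ranges overlapped and the change of -0.10 did not pass (95% confidence interval -0.26 to 0.05, limma adjusted p = 0.240). The stability change of -0.29 (SE 0.100) passed narrowly (limma adjusted p = 0.0426). It did not pass with RLE, upper-quartile or no scaling factors (limma adjusted p = 0.0709 to 0.197), with DESeq2 (-0.21, adjusted p = 0.262) or with no filter on low counts (limma adjusted p = 0.183). It did not pass either when WT replicate 1 or 3 or KO replicate 1 or 2 was left out (limma adjusted p = 0.0751 to 0.169). RLE scaling also moved the split of stability calls over all genes from 704 higher and 1557 lower to 1049 higher and 960 lower.

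E2f5 (chr3:14578641-14606309, plus strand) was lower at both steps, and more so in nascent RNA. Nascent RNA was 38.7, 35.8 and 32.2 CPM in WT and 23.9, 25.0 and 23.7 CPM in KO, a change of -0.55 (SE 0.131, limma adjusted p = 0.000624). Total RNA was 49.2, 66.0 and 48.9 CPM in WT and 41.9, 45.8 and 47.2 CPM in KO, a change of -0.28 (SE 0.0919, limma adjusted p = 0.00851). WT replicate 2 was high, and without it the total change was -0.14 and did not pass (limma adjusted p = 0.159). It did not pass either without KO replicate 1 (-0.22, limma adjusted p = 0.0720), with DESeq2 (adjusted p = 0.0524) or with no filter on low counts (limma adjusted p = 0.0561). The stability change was 0.27, with a 95% confidence interval of -0.05 to 0.60 (limma adjusted p = 0.275), in a gene with a 7-base ESCC match.

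Set against the pocket proteins, the summed level of E2f1 and E2f3 was 26.2 ± 0.568 CPM per kilobase in WT and 21.6 ± 1.08 in KO total RNA. The sum of E2f4 and E2f5 was 81.3 ± 1.97 in WT and 63.7 ± 3.51 in KO. The ratio of pocket protein to E2f1 and E2f3 RNA was 1.02 ± 0.0499 in WT total libraries and 2.51 ± 0.133 in KO total libraries. In 4sU libraries this ratio was 0.377 ± 0.0175 in WT and 0.728 ± 0.0789 in KO (SD, n = 3 throughout). RNA levels do not measure the proteins or their phosphorylation.

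Lin54 (chr5:100441918-100500626, minus strand) was modestly higher. Total RNA was 80.3, 79.5 and 87.4 CPM in WT and 102, 99.5 and 105 CPM in KO, a change of 0.31 (SE 0.0625, limma adjusted p = 7.56e-05). Nascent RNA was 58.6, 61.0 and 59.8 CPM in WT and 61.6, 68.7 and 69.9 CPM in KO. The nascent change of 0.16 did not pass (limma adjusted p = 0.0812), but without KO replicate 1 it was 0.23 and passed (limma adjusted p = 0.0311), as it did with library size alone as scaling (limma adjusted p = 0.0483). The stability change was 0.15, with a 95% confidence interval of -0.06 to 0.35.

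Mybl1, which encodes A-MYB and is best known from meiotic male germ cells (chr1:9667415-9700209, minus strand), moved in opposite directions in the 2 kinds of RNA. Total RNA was 53.6, 52.0 and 49.5 CPM in WT and 67.7, 63.8 and 70.1 CPM in KO. Nascent RNA was 71.2, 59.5 and 59.5 CPM in WT and 33.2, 40.2 and 48.3 CPM in KO. In total RNA every KO library was above, and in 4sU RNA every KO library below, every WT library. Total RNA rose by 0.38 (SE 0.0848, limma adjusted p = 0.000233) while nascent RNA fell by 0.66 (SE 0.103, limma adjusted p = 2.44e-06). The stability change was 1.04 (SE 0.134, limma adjusted p = 1.11e-06), a 2.05-fold higher ratio of total to nascent RNA. Mybl1 is the only one of the 10 with a pair of 7-base ESCC matches, printed above. Whether they bear on its stability was not tested.

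Mybl2, which encodes B-MYB, the MYB of proliferating cells (chr2:163054687-163084688, plus strand), was the highest of the 10 per kilobase in every group. Total RNA was 411, 398 and 442 CPM in WT and 366, 383 and 343 CPM in KO, a change of -0.20 (SE 0.0504, limma adjusted p = 0.00105). Nascent RNA was 216, 203 and 211 CPM in WT and 210.0, 194 and 191 CPM in KO, with overlapping ranges and a change of -0.09 that did not pass (95% confidence interval -0.21 to 0.04, limma adjusted p = 0.239). With RLE scaling the nascent change was -0.14 and passed (limma adjusted p = 0.0460). The stability change was -0.11 (95% confidence interval -0.27 to 0.05). Of the summed Mybl1 and Mybl2 level per kilobase, Mybl1 made up 8.35 ± 0.663% in WT and 11.9 ± 1.07% in KO total RNA, and 18.1 ± 1.21% in WT and 13.1 ± 2.62% in KO nascent RNA (SD, n = 3).

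**Figure D3:**
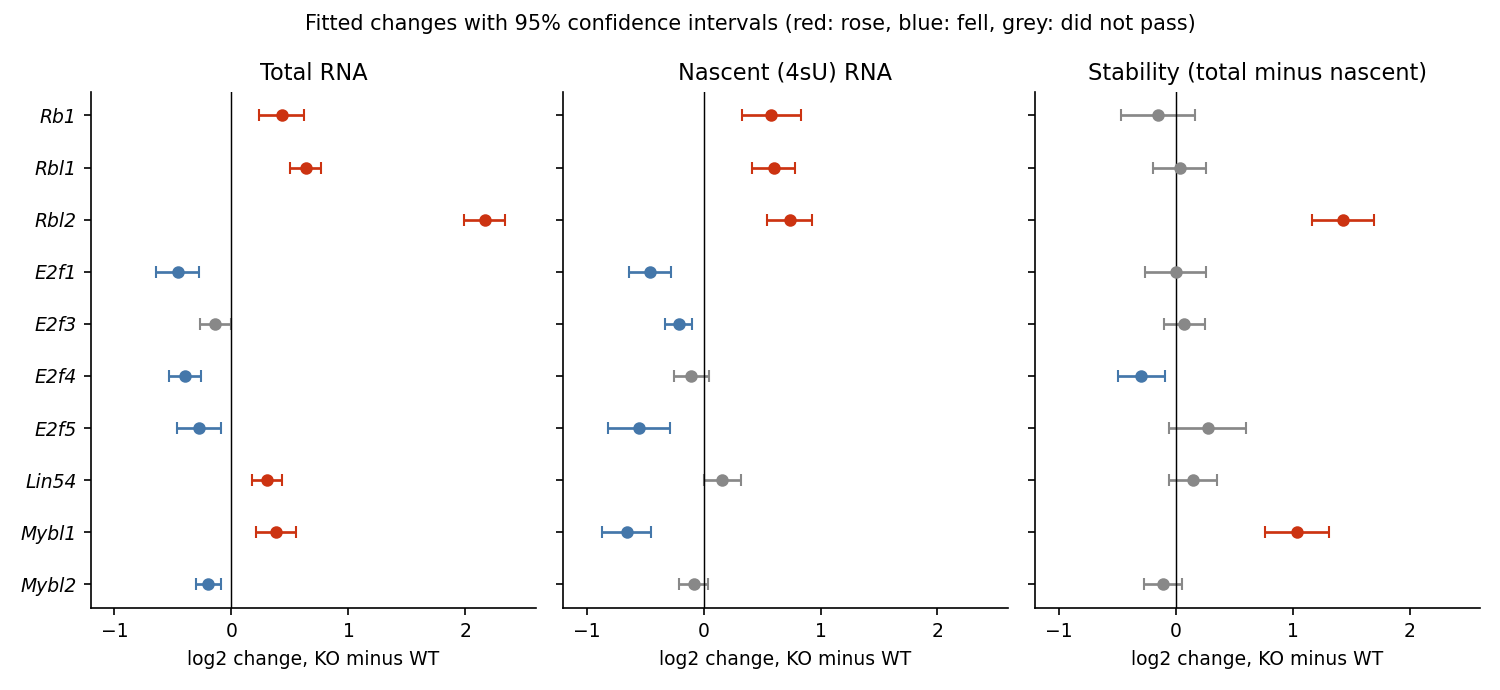
Fitted log2 changes (x axis, KO minus WT) of the 10 genes in total RNA, nascent RNA and stability, with 95% confidence intervals from limma. Red points rose, blue points fell and grey points did not pass at an adjusted p under 0.05. For stability, Rbl2 at 1.43 and Mybl1 at 1.04 lie clear of 0, E2f4 at -0.29 passes narrowly, and the other 7 intervals include 0.

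Per kilobase, the order of the 10 genes in WT total RNA was Mybl2 (114 CPM per kilobase), E2f4 (50.6), E2f5 (30.7), Lin54 (16.8), Rbl1 (16.2), E2f3 (13.7 to 14.3), E2f1 (12.2), Mybl1 (10.4), Rb1 (5.63) and Rbl2 (4.81). The neighbours Lin54 and Rbl1, and Rb1 and Rbl2, overlapped between libraries. In KO total RNA Mybl2 (99.7), E2f4 (38.5) and E2f5 (25.2) had the highest means, with the ranges of E2f5 and Rbl1 (25.0) overlapping, and E2f1 (8.87) and Rb1 (7.60), whose ranges overlapped, were lowest. In WT nascent RNA the order began with Mybl2 (57.6), E2f4 (44.9) and E2f3 (32.0), and Rb1 (4.10) was lowest, as it was in KO nascent RNA (6.09).

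The ratio of total to 4sU RNA orders the genes by relative stability within a genotype and was taken against the median of all tested genes, so that scaling does not shift it. In WT cells the log2 ratio was 0.90 ± 0.0726 for Mybl2, at the 78.2 percentile of tested genes, and 0.80 ± 0.0954 for Rbl1. It was -1.28 ± 0.0363 for E2f3, at the 22.2 percentile, and -0.77 ± 0.131 for E2f1. Each SD is over 3 differences between a total and a 4sU library of the same replicate number. These numbers were not shown to pair the libraries. The median over the 10 genes was 0.23 ± 0.0587. Rbl2 was at -0.55 ± 0.239 and Mybl1 at -0.39 ± 0.0989 in WT, below the median gene, and their ranges over the 3 differences overlapped. In KO cells Rbl2 was at 0.96 ± 0.0421, at the 79.7 percentile, and Mybl1 was at 0.74 ± 0.244. The range of Rbl2 overlapped those of Rbl1, E2f5, Mybl1 and Mybl2. The other 8 genes kept their side of the median gene, apart from E2f4, which was at 0.08 ± 0.0832 in WT and -0.12 ± 0.0901 in KO.

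**Figure D4:**
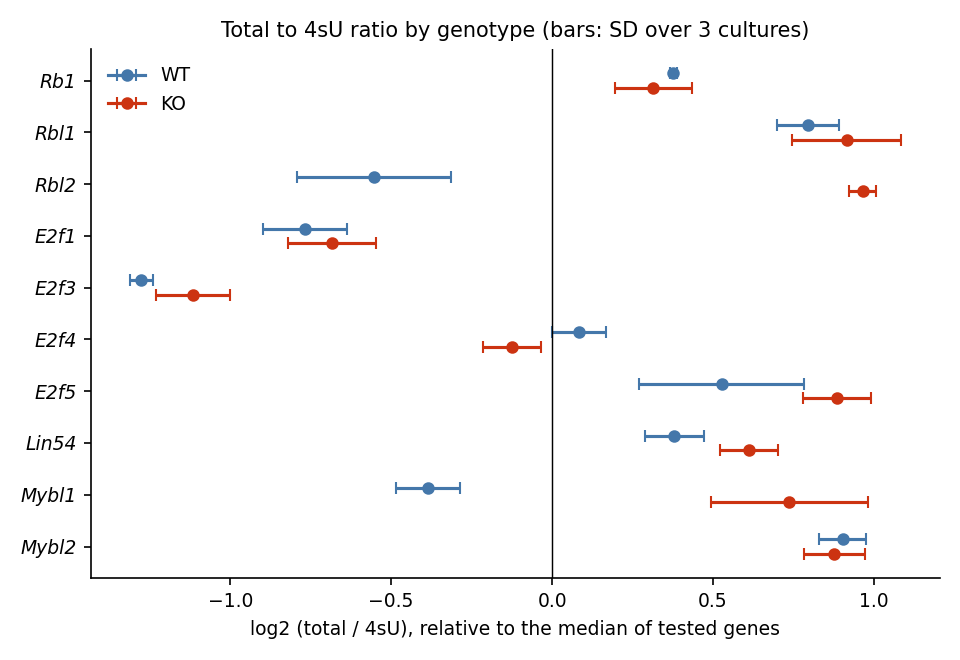
Total to 4sU ratio of the 10 genes on the log2 scale (x axis), relative to the median of tested genes, in WT (blue) and KO (red) cells. Points are fitted values and bars the SD over 3 same-numbered pairs of total and 4sU libraries. Rbl2 moves from -0.55 to 0.96 and Mybl1 from -0.39 to 0.74.

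Promoter sequences of RefSeq (GRCm38.p6, from 250 bases before to 50 after the start) were at hand for 6 of the 10 genes, Rbl1, Rbl2, E2f1, E2f3, Lin54 and Mybl2. They were searched on both strands for the E2F motif as TTTCGCGC, TTTGGCGC, TTTCCCGC or TTTGCCGC, because several of these genes are textbook E2F targets. A match stood in the Rbl1 promoter and in 1 of the E2f3 promoters, and in 2.26% of all 32851 promoters. It is shown in capitals, in the orientation of the gene.
Rbl1 promoter (match at chr2:157204545-157204552, minus strand): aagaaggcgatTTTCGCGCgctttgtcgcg
E2f3 promoter (match at chr13:29986067-29986074, minus strand): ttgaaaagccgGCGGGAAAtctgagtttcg
Nascent RNA rose for Rbl1 and fell for E2f3. Counts did not separate the promoters of E2f3, so its change cannot be assigned to the promoter with the match. The CHR element TTTGAA, to which LIN54 binds, stood in promoters of Rbl2, E2f3 and Lin54 and in 17.9% of all promoters. In E2f3 it does not overlap the E2F match.

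The genes whose levels over all 12 libraries were most like those of Rbl2, by Pearson's r of log2 CPM, were Il6st (r = 0.984), 9530068E07Rik (0.983) and Prss35 (0.982). Their stability changes were 0.86, 1.99 and 1.24. Most like Mybl2 were Ptpa (0.996), Rcc2 (0.995) and Ubqln1 (0.995). The 12 libraries share genotype and library type, which set most of this likeness.

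The wider pathway was taken from lists of 76 genes, which were chosen with earlier results of these data known. Among 6 other E2F and DP genes, 2 rose and 3 fell in total RNA and in nascent RNA, with 1 lower for stability, counts near the shares of all tested genes given above. E2f6, a pocket-independent repressor, rose by 0.54 in total RNA (limma adjusted p = 1.98e-05). E2f8, an atypical repressor and E2F target, fell by 0.87 in total RNA (limma adjusted p = 1.10e-06) and by 0.62 in nascent RNA (limma adjusted p = 1.43e-05). Tfdp2, a dimerisation partner of E2Fs, rose by 0.58 in nascent RNA (limma adjusted p = 9.63e-06), had a total change of 0.16 that did not pass (limma adjusted p = 0.0561), and fell by 0.42 in stability (limma adjusted p = 0.0156). With RLE scaling the total change of 0.19 passed (limma adjusted p = 0.0242) and the stability change of -0.33 did not (limma adjusted p = 0.0691).

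Among 6 other MuvB, MYB and FOXM1 genes, Myb rose most, from 4.51 ± 0.603 to 30.8 ± 3.05 CPM in total RNA and from 6.21 ± 0.463 to 32.9 ± 0.420 CPM in nascent RNA (SD, n = 3). Its changes were 2.75 in total RNA (limma adjusted p = 1.63e-15) and 2.39 in nascent RNA (limma adjusted p = 2.22e-13), with a stability change of 0.37 that did not pass. All 3 vertebrate MYB genes were thus measured, and they differed: Myb was higher at both steps, Mybl1 higher in total and lower in nascent RNA, and Mybl2 slightly lower in total RNA. Lin9, another MuvB subunit gene, fell by 0.61 in total RNA (limma adjusted p = 1.41e-07) with a nascent change of 0.04, and fell by 0.65 in stability (limma adjusted p = 0.000122). Rbbp4, a histone-binding MuvB subunit gene, fell by 0.39 in nascent RNA (limma adjusted p = 1.66e-06). Over the list, 2 rose and 3 fell in total RNA, 2 rose and 2 fell in nascent RNA, and 1 fell in stability. These counts are near the shares of all tested genes given above.

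Upstream of the pocket proteins, 11 of 12 listed cyclin D, kinase and inhibitor genes were tested. In total RNA 4 rose and 5 fell, in nascent RNA 4 rose and 3 fell, and in stability 1 rose and 2 fell. The counts in total and nascent RNA are close to the shares of all tested genes. For stability, 5.02% of tested genes rose and 11.1% fell. Ccnd2 had 1 to 4 counts in WT total libraries and 65 to 79 in KO, and in 4sU libraries 0 or 1 count in WT and 39 to 55 in KO, at least 16.8-fold higher against a floor of 3 counts per WT library. Ccnd3 fell by 1.14 in total RNA (limma adjusted p = 3.49e-17) and by 0.86 in stability (limma adjusted p = 1.26e-07). Ccnd1 rose from 114.1 ± 3.24 to 335.3 ± 12.65 CPM in total RNA, and Cdk6 from 52.3 ± 2.30 to 143.1 ± 5.44 CPM (SD, n = 3). In nascent RNA they rose by 1.53 (limma adjusted p = 2.30e-17) and 1.52 (limma adjusted p = 3.72e-18). Neither passed for stability. Cdkn1a, which encodes the kinase inhibitor p21, rose by 0.77 in total RNA (limma adjusted p = 2.32e-08) and by 0.92 in stability (limma adjusted p = 9.64e-07). Its nascent change of -0.16 did not pass (limma adjusted p = 0.0542), but did with RLE scaling (-0.21, limma adjusted p = 0.00858). Cdkn2d, another inhibitor gene, fell by 0.55 in nascent RNA (limma adjusted p = 0.00241).

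Downstream, the targets were mostly lower at both steps. Their lists were chosen with earlier results of these data known, so the counts are a description and not an independent test. As for E2f1, a smaller share of cells in the phase that expresses these genes and less RNA per cell cannot be told apart. Of 27 E2F target genes of G1 and S phase, 2 rose and 20 fell in total RNA, against 27.2% and 36.7% of tested genes. In nascent RNA 2 rose and 21 fell, against 28.3% and 28.0% of tested genes. The list medians were -0.56 and -0.62, where all tested genes had -0.09 and -0.02. Rrm2, the ribonucleotide reductase subunit gene, fell most, by 1.50 in total RNA (limma adjusted p = 2.75e-21) and by 1.64 in nascent RNA (limma adjusted p = 1.16e-20). Pola1, of DNA polymerase alpha, rose by 0.55 in total RNA (limma adjusted p = 4.01e-09). In stability 5 rose and 3 fell, against 5.02% and 11.1% of tested genes. Ccne2, the cyclin E2 gene, had the pattern of Mybl1: it rose by 0.52 in total RNA (limma adjusted p = 5.94e-07), fell by 0.64 in nascent RNA (limma adjusted p = 4.36e-08) and rose by 1.16 in stability (limma adjusted p = 3.60e-09). Smaller stability rises were those of Mcm7 (0.53, limma adjusted p = 7.80e-07), a helicase subunit gene, and Cdt1 (0.50, limma adjusted p = 6.92e-05), an origin licensing factor gene. Cdk2 rose by 0.25 in nascent RNA (limma adjusted p = 0.00364) and fell by 0.42 in stability (limma adjusted p = 0.00131).

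Of 25 G2 and M phase target genes of B-MYB, MuvB and FOXM1, 24 fell and 1 rose in total RNA. The shares of all tested genes were 36.7% and 27.2%. This list too was chosen with earlier results known. In nascent RNA 21 of the list fell, against 28.0% of tested genes. The list medians were -0.72 in total and -0.56 in nascent RNA. Cenpa, the centromeric histone gene, fell most in total RNA, by 1.87 (limma adjusted p = 4.92e-21), and also in stability, by 0.66 (limma adjusted p = 1.52e-05). Ccnb1, the cyclin B1 gene, fell most in nascent RNA, by 1.47 (limma adjusted p = 7.88e-17). Cdc25b, a phosphatase gene of mitotic entry, was the one that rose in total RNA, by 0.36 (limma adjusted p = 0.00106). In stability 5 of the list fell, against 11.1% of tested genes. The median stability change was -0.08 for this list and -0.01 for the G1 and S phase list, close to the -0.09 of all tested genes. With RLE, upper-quartile or no scaling the median of all genes moved by less than 0.1 in each of these comparisons. For stability that is as large as the median itself, which was -0.0026 with RLE, -0.025 with upper-quartile and -0.065 with no scaling.

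**Figure D5:**
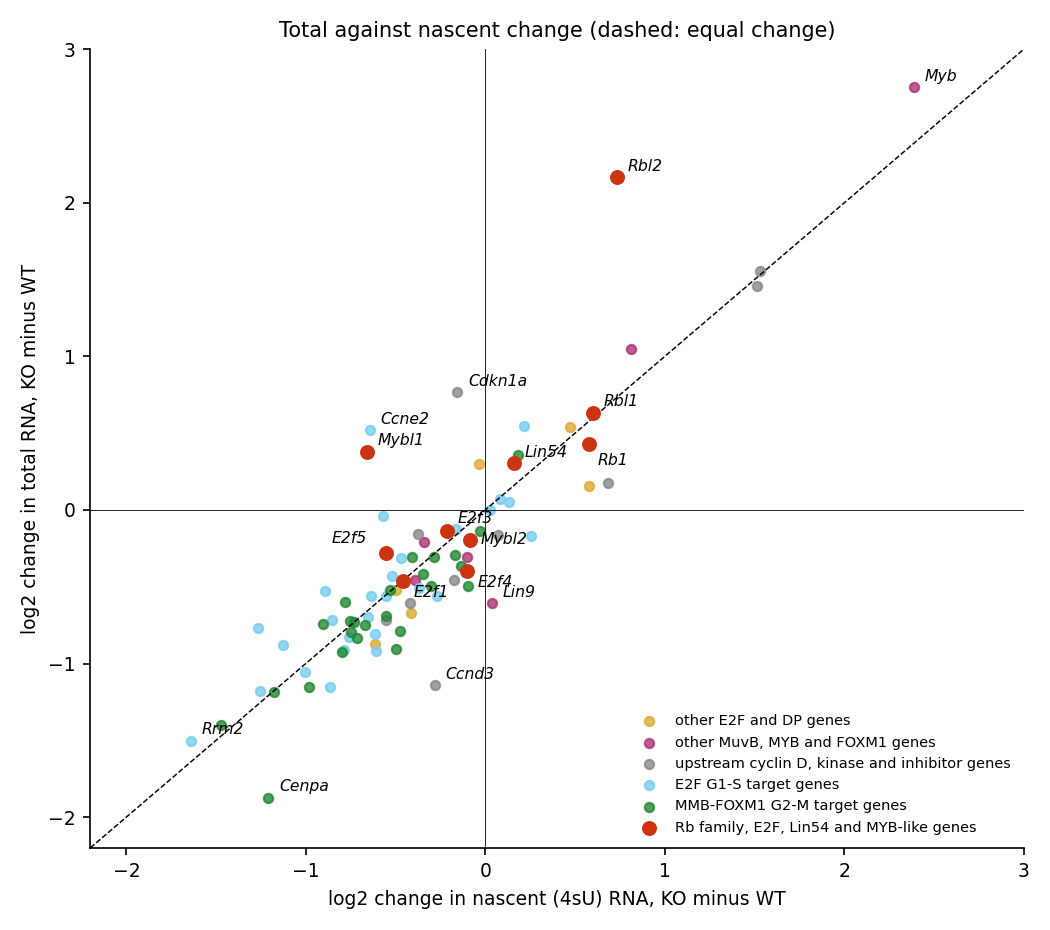
Log2 change in nascent RNA (x axis) against log2 change in total RNA (y axis), KO minus WT, for the 10 genes (red, larger) and the genes of the 5 pathway lists. The dashed line marks equal change, and Ccnd2, whose WT counts were near 0, is not drawn. Rbl2, Mybl1, Ccne2 and Cdkn1a lie above the line, Lin9, Ccnd3 and Cenpa below it, and most G1 to S and G2 to M targets lie in the lower left.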

How the data were processed

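The deposited table held raw, whole-number counts of reads for 12 libraries in 4 groups of 3. Per the labels, the header of the table and the paper's methods, the authors trimmed single-end reads with cutadapt 1.14, mapped them uniquely to mm10 with STAR 2.5.3a and counted them by strand over GENCODE M14 exons with featureCounts 1.5.3. Unique mapping under-counts near-identical genes. Symbols came from GENCODE M21 (also mm10), which held 51274 of the 51467 identifiers. The 92 spike-in rows held 1 count in all libraries together.

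The filter, at least 3 CPM in at least 3 libraries, and the use of limma with an interaction term follow the study. Counts were scaled by TMM (edgeR 4.0.16) and fitted in R 4.3.3 by limma 3.58.1 with voom, where a single model of the 4 groups covered all 12 libraries. Stability is the interaction of genotype and library type. It equals a change in decay only as far as the 4sU signal equals transcription and RNA levels are steady over time. The study assumed steady levels within each cell state. A gene passed at a Benjamini-Hochberg adjusted p under 0.05 over all 14033 genes. The fold-change limit of the study (absolute log2 over 1) was kept as an alternative. CPM per kilobase used the summed exon length of the table. Reads carry no molecular identifiers, so the floor of 3 counts covers counting error only.

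The 10 genes and the lists were chosen with earlier results of these data known. Named genes are the 10, Dgcr8, the pathway genes that passed for stability with an absolute log2 change over 0.5, the largest passing rise and fall of each pathway list and comparison, and the 3 genes most like Rbl2 and Mybl2. Ccnd1 and Cdk6 are named besides for the size of their changes. They were not among the values counted under the alternatives. The alternatives were edgeR's quasi-likelihood test, DESeq2 1.42.0, other scalings and filters, replicate blocks, other site definitions and leaving out each culture. No pair of replicates agreed within sampling noise (lowest chi-square per degree of freedom 1.59).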

Additional observations from a re-analysis of the deposited data

Results flagged for a closer look

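For 3 of the 10 genes the change between genotypes differed between total and 4sU libraries by the interaction term of limma. The differences on the log2 scale were 1.43 for Rbl2, 1.04 for Mybl1 and -0.29 for E2f4, the last lost under other scalings. For Mybl1 the total and nascent changes had opposite signs.

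The same held for other genes named in the report. The total change exceeded the nascent change by 1.16 for Ccne2, 0.92 for Cdkn1a, 0.53 for Mcm7, 0.50 for Cdt1 and 0.33 for Pola1. It lay below the nascent change, with differences of -1.09 for Dgcr8, -0.86 for Ccnd3, -0.66 for Cenpa, -0.65 for Lin9, -0.42 for Tfdp2 and -0.42 for Cdk2. The call for Tfdp2 was lost with DESeq2 (-0.32), RLE scaling (-0.33) or no filter (-0.40), and without WT replicate 3 (-0.34) or KO replicate 3 (-0.35). That for Pola1 was lost with no filter (0.34), and without WT replicate 1 (0.32), KO replicate 1 (0.23) or KO replicate 2 (0.36).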

How the results depend on the processing

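The numbers of the 10 genes that passed moved by at most 1 under every alternative run except the fold limit. With an absolute log2 change over 1 also required, 1 gene (Rbl2) passed in total RNA, 0 in nascent RNA with limma, edgeR or DESeq2 (8 had an unadjusted p under 0.05 with limma), and 2 for stability (1 without WT replicate 1 or KO replicate 1). Leaving out single cultures gave 8 to 9 in total RNA, 7 to 8 in nascent RNA and 2 to 3 for stability. Matches to the ESCC seed rose from 4 genes to 9 with the bare hexamer and fell to 1 with the 8-base match.

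Of 430 alternative values of the 10 genes' changes, 402 kept direction and call, 13 lost and 3 gained a call, all for E2f4 stability, E2f5 total and Lin54 and Mybl2 nascent RNA, and 12 changed sign. The sign changes were those of values near 0 that passed in no setting. The stability change of E2f1 was 0.087 with DESeq2, 0.089 with RLE, 0.066 with upper-quartile scaling, 0.026 with library size, 0.011 with 3 CPM in all libraries, 0.017 with no filter and -0.073 to 0.060 without single cultures, and that of Rbl1 -0.028 to 0.13 without single cultures. Of 857 values for the other named genes, 813 were kept, 19 lost and 13 gained a call, and 12 changed sign. Tfdp2 total RNA gained its call under 8 alternatives. The sign changes were Lin9 nascent RNA (-0.016 with DESeq2, -0.017 with RLE, -0.0094 with upper-quartile scaling, -0.023 to 0.10 without single cultures), Rbbp4 stability (0.028 with DESeq2, 0.028 with RLE, 0.0051 with upper-quartile scaling), Mcm7 total RNA (0.015 with library size), and, without single cultures, E2f6 stability (-0.089 to 0.14) and Cdkn2d stability (-0.30 to 0.043). The cause was not tested.

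The replicate numbers were not shown to pair the samples. Deviations from group means correlated at -0.0699 to 0.0699 between same-numbered WT and KO libraries. Between same-numbered 4sU and total libraries they correlated at 0.0110 to 0.0783. A block per culture pairs same-numbered 4sU and total libraries of a genotype. With it 3 of the 10 genes passed for stability. Over all tested genes 868 were then higher and 1881 lower, against 704 and 1557 without it. With a replicate block, the counts for the 10 genes were unchanged (9 in total RNA, 7 in nascent RNA, 3 for stability), and 119 of 120 named values kept their call, the exception being Cdkn1a nascent RNA (-0.16, limma adjusted p = 0.0213). In total and nascent RNA the counts over the pathway lists moved from 66 to 65 and from 60 to between 57 and 63 under the 4 alternatives run. The 10 genes had 99 to 3825 counts per library, which limits how small a change of the lower ones, Rb1 first, could pass.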
